A study of Mus musculus with 258 samples.

Results

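Loops of the Hist1 region are the chromatin loops of mouse chromosome 13 (build mm9) with at least 1 anchor starting between 21000000 and 24000000, the part of the chromosome that holds the main cluster of replication-dependent histone genes. The rule found 29 loops of 6181 in all, 19 of the 1866 in resting B cells and 10 of the 4315 in activated B cells. The members were chosen by position among loops that the authors had called from observed against expected contacts, and the region had been picked out with these calls known. Their number, length and strength are therefore given as a description, with no test.

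A chromatin loop joins 2 distant stretches of DNA, its anchors, and appears in Hi-C as a pixel with more ligation contacts than its surroundings. Per the labels, the cells were B cells isolated by negative selection from spleens of wild-type C57BL6/J mice aged 6 to 8 weeks. Resting cells were taken at 0 h without treatment. Activated cells had spent 72 h with 3 agents: anti-CD180 (RP105) antibody at 0.5 µg/mL, IL-4 (interleukin 4) at 2.5 ng/mL and LPS (lipopolysaccharide) at 50 µg/mL. The labels list 8 resting and 26 activated Hi-C libraries, and each state has 1 pooled loop list with no replicates. Neither the labels nor the file headers say whether libraries came from separate animals or whether each went into its list. The lists hold contacts and no expression, so B cell markers could not be measured.

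Replication-dependent histone genes encode the core histones H2A, H2B, H3 and H4, around which DNA is wrapped, and the linker histone H1, which binds DNA between nucleosomes. They are transcribed mainly while DNA is copied, and a nuclear compartment, the histone locus body, forms at these genes and concentrates factors for their transcription and RNA processing. Resting B cells are out of the cell cycle, and activation by LPS and interleukin 4 is known to make them divide.

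The RefSeq gene order (GRCm38.p6) places the 56 Hist1 entries of this part of the chromosome in 4 runs, where a run ends at 5 or more other entries in a row. The first run has 19 histone entries from Hist1h2bl to Hist1h2br, and Hist1h1b is the 10th of them. The second run has 5 entries, from Hist1h2ah to Hist1h2bj, and no H1 gene. The third has 30 entries from Hist1h4h to Hist1h1a and holds 5 linker histone genes, Hist1h1t and the other 4 named here. Of these 4, Hist1h1d is the 7th, Hist1h1e the 16th, Hist1h1c the 21st and Hist1h1a the 30th and last. The fourth has 2 entries, Hist1h2ba and Hist1h2aa. The runs are thus uneven, and 4 of the 5 named H1 genes lie together in the third.

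Other genes separate the runs. Between the first and the second lie 39 other entries, of which 31 are transfer RNA genes. Between the second and the third lie 147 others, of which 75 are Vmn1r entries and 46 are transfer RNA genes. Vmn1r genes encode pheromone receptors of the vomeronasal organ, and 36 of the 75 entries are protein-coding. Only 8 entries lie between the third and the fourth run. The loops are in another build, mm9, and mm9 gene positions were not used here, so no gene was assigned to an anchor and no loop is claimed for a single gene.

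The promoters of the 5 named H1 genes are shown so that the same motifs can be compared across the members, 4 of them in the third run and Hist1h1b in the first. Each line gives the 125 bases before the gene's start, 5′ to 3′ on the gene's own strand, from RefSeq (GRCm38.p6). Capitals mark 4 motifs where they read forward: AAACACA (known as the H1 box), the CCAAT box, and the TATA box forms TATAAA (ending in 3 A) and TATATA.
Hist1h1a: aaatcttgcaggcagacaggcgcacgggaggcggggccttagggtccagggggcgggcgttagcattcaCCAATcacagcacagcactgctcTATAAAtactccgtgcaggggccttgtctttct
Hist1h1b: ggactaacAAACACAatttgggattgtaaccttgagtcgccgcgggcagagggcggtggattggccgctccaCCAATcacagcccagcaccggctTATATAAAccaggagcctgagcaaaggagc
Hist1h1c: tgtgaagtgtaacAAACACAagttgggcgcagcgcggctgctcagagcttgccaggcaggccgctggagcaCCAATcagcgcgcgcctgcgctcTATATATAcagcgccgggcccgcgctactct
Hist1h1d: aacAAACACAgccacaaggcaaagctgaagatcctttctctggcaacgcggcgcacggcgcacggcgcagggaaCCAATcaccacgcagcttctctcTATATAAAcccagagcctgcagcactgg
Hist1h1e: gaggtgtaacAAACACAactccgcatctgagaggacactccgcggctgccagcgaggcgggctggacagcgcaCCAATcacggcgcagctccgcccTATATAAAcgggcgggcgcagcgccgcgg

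AAACACA starts 117 bases before the start of Hist1h1b, 112 before Hist1h1c, 122 before Hist1h1d and 115 before Hist1h1e. It has no match in the 250 bases before Hist1h1a on either strand, although that gene closes the same run as 3 of the others. The CCAAT nearest the start is 51 to 56 bases before it in each of the 5 genes. Over the 250 bases before each start, both strands counted, AAACACA was found in 5 of 6 Hist1 H1 promoters (the 5 named genes and Hist1h1t) and in 4 of 45 promoters of the region's core histone genes. It was in 6.25% of 32851 RefSeq mouse promoters. CCAAT was in 6 of 6 and in 37 of 45, against 33.8% of all. By family, CCAAT was in 13 of 13 H2A, 14 of 14 H2B and 7 of 7 H3 promoters, and in 3 of 11 H4 promoters. Whether the stretches before neighbouring genes overlap was not checked. A match shared by 2 genes would count for both, so the promoters are not independent sequences. TATAAA was in 4 of 6 and 22 of 45 (12.4% of all) and TATATA in 5 of 6 and 9 of 45 (5.25% of all); these 2 can overlap. A match is a description of the letters, and the loops do not bear on it.

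Anchors of the 29 loops were gathered into groups where neighbouring anchors lay within 100 kb. These are groups of anchors, not of genes. No group was matched to a run of histone genes, and which groups hold such genes was not determined. In order along the chromosome, and named by their position, they lay at 20.4 Mb, at 21.02 Mb, from 21.25 to 21.35 Mb, from 21.5 to 21.62 Mb, from 21.8 to 21.82 Mb, from 22.02 to 22.13 Mb and from 23.39 to 23.84 Mb. Below they are called the 20.4, 21.02, 21.26, 21.5, 21.8, 22.1 and 23.5 Mb groups. The widest anchor-free stretch, 1255 kb, lay between the 22.1 and the 23.5 Mb group. In the gene order the longest interruption is the one with the Vmn1r genes; whether the 2 stretches coincide was not tested.

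In resting cells 4 anchor groups, at 21.26, 21.8, 22.1 and 23.5 Mb, were joined to each other in every one of the 6 possible pairs. In activated cells 1 of these 6 pairs was joined, the 21.8 Mb with the 22.1 Mb group. The other activated pair, 20.4 with 21.02 Mb, lay to the left of all resting members. Resting loops thus bridged the 1255 kb stretch 7 times, and no activated loop did. The pair counts rest on the 100 kb grouping: at 50 kb there were 14 resting and 7 activated pairs, and at 200 kb 1 and 1, so that the states no longer differed in the count. Limiting both lists to loops with all 4 q-values at most 0.01 left 3 of the 6 resting pairs (21.26 with 21.8 Mb, 21.26 with 23.5 Mb and 22.1 with 23.5 Mb) and both activated pairs, so that no pair of groups was then joined in both states.

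**Figure D1:**
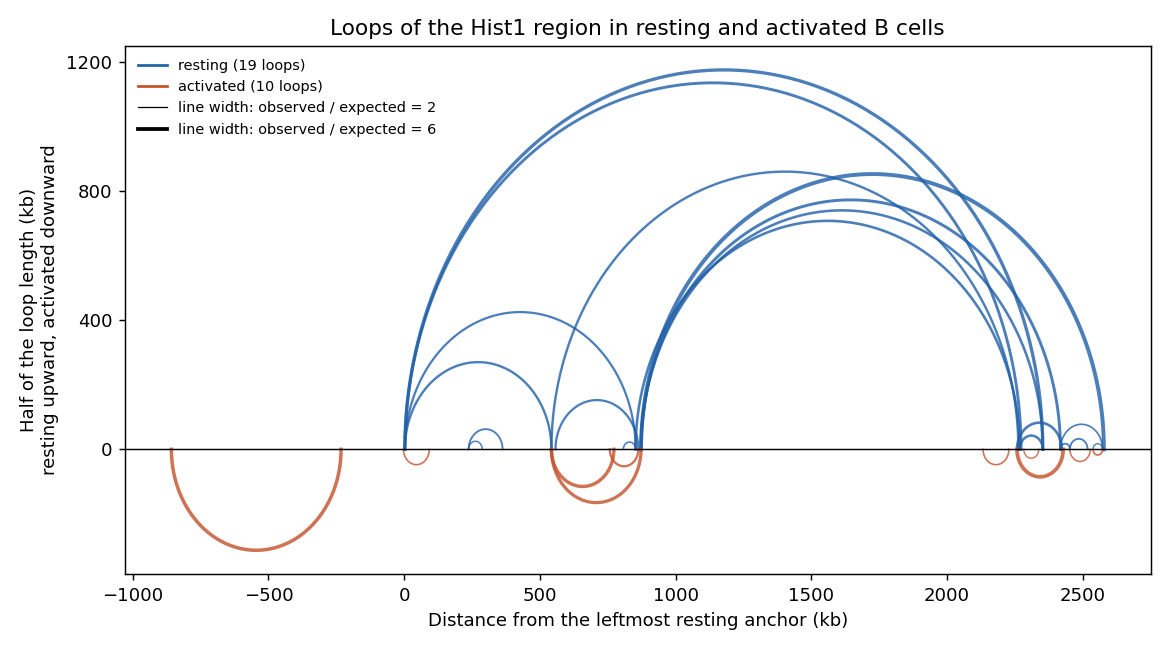
Each arc is 1 loop between its anchors, with distance along chromosome 13 from the leftmost resting anchor on the x axis (kb) and arc height 0.5 times the loop length (kb); the 19 resting loops point up, the 10 activated loops down, and line width gives observed over expected contacts. Long arcs, of 540 to 2350 kb, appear on the resting side, and the activated arcs right of 0 kb are at most 330 kb long.

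The leftmost resting anchor, at 21260001 to 21265000, took part in 4 resting loops, all over 500 kb. Its loop to 21.8 Mb was 540 kb long and had 40 contacts (exact 95% Poisson interval 28.6 to 54.5), 3.79 times the donut-expected count, that is the count expected from the ring of pixels around the loop. Its loop to 22.11 Mb was 850 kb long with 44 contacts at 3.56 times expected. Both its loops into the 23.5 Mb group had a higher donut ratio, with 53 contacts at 4.57 times to 23.53 Mb (3.43 to 5.98). To 23.61 Mb it was 55 contacts at 5.23 times (3.94 to 6.81). The ratio intervals of all 4 loops overlapped. Over 2 other local backgrounds, lower left and horizontal, the loop to 23.61 Mb (3.95 and 2.66 times) was below that to 21.8 Mb (4.14 and 2.94). Over the vertical one it was above (5.25 against 3.12). The 2 loops into the 23.5 Mb group were 2270 and 2350 kb long, the 2 longest of the 1829 resting loops outside chromosome Y. In activated cells the neighbouring pixel, from 21255001, had 1 loop, to 21.35 Mb, 95 kb long, with 67 contacts at 2.61 times expected.

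The 21.8 Mb group reached across the wide stretch once. Its resting loop to 23.52 Mb was 1720 kb long with 30 contacts (20.2 to 42.8) at 3.83 times expected. Its link to the 22.1 Mb group was the one kept in both lists. In resting cells it ran from 21.815 to 22.12 Mb with 36 contacts at 3.60 times expected (2.52 to 4.98). In activated cells it ran from 21.8 to 22.13 Mb with 27 contacts at 5.14 times (3.39 to 7.49), and a second activated loop ran from 21.8 to 22.03 Mb with 27 contacts at 5.38 times. The ratio was higher in activated cells although the contacts were fewer, because the donut-expected count was 5.25 against 10.01. The intervals of the 2 ratios overlapped. Over the lower left background alone the ratio was lower in activated cells (3.57 against 4.48). The left anchors lay 15 kb apart and the right anchors 10 kb apart, so the values belong to different pixels. At 1212 loops paired between the lists, the median ratio of expected contacts, activated over resting, was 1.55, and it was taken as the depth ratio. Divided by that ratio, 27 contacts are 17.4, below the lowest count of any resting loop, 19. Divided by the ratio at paired loops over 500 kb, 1.23, they are 21.99, above it. At this pair itself the expected-count ratio was 0.52, so the scaled count depends on the ratio chosen.

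The 22.1 Mb group held the merged anchor with the most resting loops of the region. Its pixels from 22110001 to 22135000 took part in 7 of the 19 resting loops, 5 of them over 500 kb; the whole 23.5 Mb group, with 12 resting anchor pixels, took part in 13. It had 4 loops to the 23.5 Mb group, 1415 to 1705 kb long: 55 contacts to 23.525 Mb at 4.14 times expected, 44 to 23.61 Mb at 4.09 times, 40 to 23.675 Mb at 4.66 times and 23 to 23.835 Mb at 6.21 times. The last ranked 5th by this ratio among the 1829 resting loops outside chromosome Y, with the smallest count of the 19 and a wide counting interval (3.94 to 9.32). These 4 loops met the 23.5 Mb group at 4 separate places, so the link was not a single pixel. In activated cells the same stretch, 22120001 to 22135000, took part in 2 loops, to 21.8 Mb and to 22.015 Mb (105 kb, 76 contacts at 3.65 times expected). In resting cells its short loop, from 22.065 to 22.11 Mb (45 kb), had 101 contacts at 2.53 times expected.

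**Figure D2:**
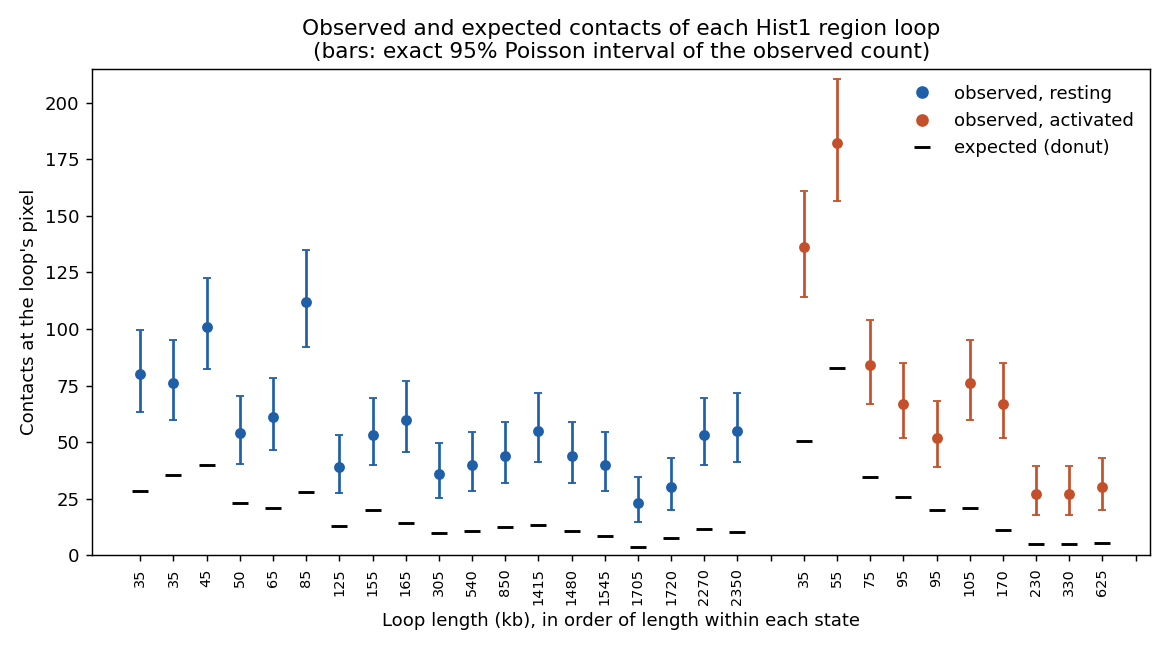
The y axis gives contacts at each loop's pixel and the x axis each loop by its length (kb), resting on the left and activated on the right; points are observed counts with exact 95% Poisson intervals and black marks the donut-expected count. The 9 longest resting loops have 23 to 55 contacts over 3.70 to 13.3 expected, and the other 10 resting loops have 36 to 112 over 10.01 to 39.9, so both ranges overlap.

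Within the 23.5 Mb group, loops were called in both states. It held 6 resting loops of 35 to 165 kb and 5 activated loops of 35 to 170 kb, and 4 of each were paired between the lists. The loop from 23795001 to 23835000 sat on the same pixel in both, with 76 resting contacts at 2.15 times expected and 136 activated contacts at 2.69 times. The loop from 23515001 to 23685000 had 60 contacts at 4.20 times, and its activated partner, 1 pixel longer, 67 at 5.89 times. The loop from 23.71 to 23.775 Mb had 61 contacts at 2.93 times, against 84 at 2.42 times from 23.71 to 23.785 Mb. These 3 pairs differed by 0.32, 0.49 and -0.28 in log2 ratio, activated minus resting, with counting errors of 0.21, 0.26 and 0.24, so each difference was under 2 counting errors and the directions were mixed.

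The fourth pair stood apart. It had 112 contacts at 3.98 times expected from 23.525 to 23.61 Mb in resting cells, and 182 at 2.20 times from 23.54 to 23.595 Mb in activated cells (log2 difference -0.85, counting error 0.17). The activated loop was 30 kb shorter (55 against 85 kb) and its expected count was 2.94 times as high, so the values belong to different pixels. It merged 34 enriched pixels, more than all but 5 of the 4267 activated loops outside chromosome Y. The resting loop merged 19, rank 11 of 1829. In both states this was the broadest loop of the region by merged pixels. The loops of the group in 1 list alone were, in resting cells, from 23.675 to 23.71 Mb (80 contacts at 2.81 times) and from 23.675 to 23.83 Mb (53 at 2.67 times). In activated cells there was 1, from 23.39 to 23.485 Mb (52 at 2.59 times).

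The remaining members lay outside the 4 linked groups. In resting cells 21.495 Mb had loops to 21.545 Mb (54 contacts at 2.33 times expected) and to 21.62 Mb (39 at 2.96 times), and no activated anchor lay in that 21.5 Mb group. In activated cells 20.4 Mb was joined to 21.025 Mb over 625 kb (30 contacts at 5.56 times), the only activated member over 500 kb. It entered by its right anchor alone, 25 kb inside the limit; the activated loop just outside ran from 20400001 to 20565000 (64 contacts at 3.34 times). On the other side the nearest loops outside the limit began at 24200001 in both lists, with 42 resting contacts at 2.48 times and 51 activated contacts at 2.65 times.

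Long loops made up 9 of the 19 resting members, where 3.48% of all resting loops were over 500 kb, and 1 of the 10 activated members, where 7.14% of all activated loops were. Of the 16 resting loops over 1000 kb outside chromosome Y, 7 were in this region; of the 50 such activated loops, none was. The median length of the members was 305 kb in resting cells and 100 kb in activated cells. By contrast the region's resting loops up to 500 kb, 10 in number, had a median of 75 kb and the 9 activated ones 95 kb. The difference in median length between the states therefore lay in the loops over 500 kb.

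By their medians, the long resting contacts stood further above their surroundings than the short activated ones; they differ in length and depth as well as in state. The 9 resting loops over 500 kb had 23 to 55 contacts (median 44), 384 in all, and stood at 3.56 to 6.21 times expected (median 4.14). The 9 activated loops up to 500 kb had 27 to 182 contacts (median 67) and stood at 2.20 to 5.89 times (median 2.69), so the ranges overlapped in both measures. Divided by the depth ratio of 1.55, the activated counts were 17.4 to 117 with a median of 43.2, close to the resting median of 44. Divided by 1.23 their median was 54.6. Resting members up to 500 kb had a median of 2.87 times, near the activated ones. The ratio also rose with length elsewhere: the 41 other resting loops over 500 kb outside chromosome Y had a median of 3.99 times and the 1769 shorter ones 2.59 times. The long resting members, at a median of 4.14 times, had a median length of 1545 kb, against 680 kb for the 41 others.

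**Figure D3:**
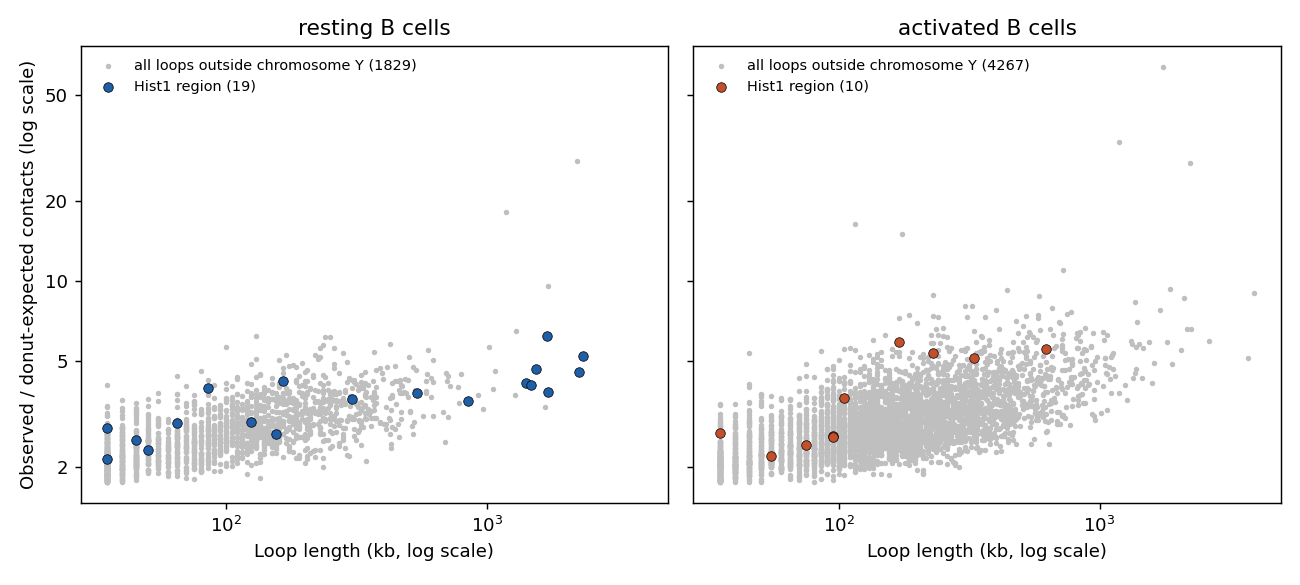
Loop length (kb, log scale) is on the x axis and observed over donut-expected contacts (log scale) on the y axis, for resting cells on the left and activated cells on the right; grey points are all loops outside chromosome Y and coloured points the Hist1 region. The resting members reach 2350 kb, the far right of the resting list, and the activated members end at 625 kb within a list that goes on to 3910 kb.

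The height of the long resting loops depended on the background they were set against. Over the donut and lower left backgrounds they stood at 3.56 to 6.21 and 3.31 to 9.21 times expected. Over the horizontal background, the row of pixels through the loop, they stood at 2.07 to 3.87 times (median 2.94), and over the vertical one at 2.71 to 7.37 times. The horizontal ratio was the lowest of the 4 in 7 of the 9 loops and the vertical in the other 2. In the loop from 22.13 to 23.675 Mb the ratio fell from 9.21 (lower left) to 2.07 (horizontal). Each of the 9 was at over 2 times expected by its lowest ratio, with more contacts along its row or column than around it. Every listed loop has a q-value of at most 0.0998 against each of these 4 backgrounds. Standing above all 4 therefore goes with being listed and is no separate support for the loops.

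**Figure D4:**
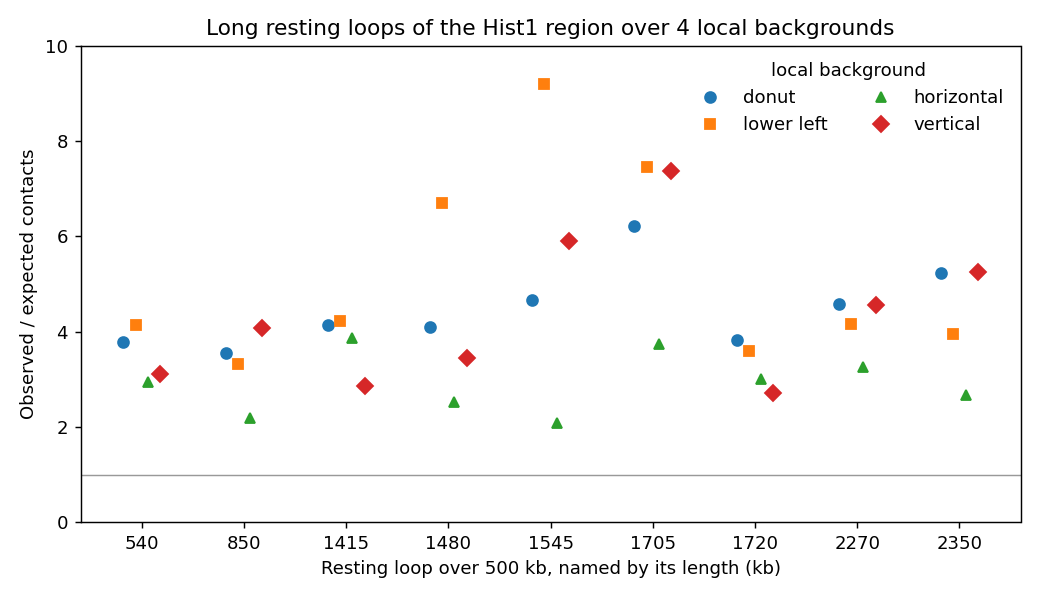
The y axis gives observed over expected contacts for each of the 9 resting loops over 500 kb, placed on the x axis by length (kb), over the 4 local backgrounds; the grey line marks a ratio of 1. All points lie above 2, and the horizontal background gives the lowest point in 7 of the 9 loops.

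Anchors of the long resting loops lay close to anchors in use in activated cells, but in other pairings. The 9 loops have 18 anchors, 2 a loop, at only 10 different positions, so an anchor used by several loops counts more than once. Each of the 18 was within 15 kb of an activated anchor of the region (median 5 kb over the 18). On the same pixel as an activated anchor were 5 of the 18, all at 21.8 or 22.13 Mb. By the 20 kb tolerance used for matching, all 9 had both anchors in the activated list, as had 11 of the 14 resting-only members, where 14.9% of all 650 resting-only loops did. With no tolerance none of the 9 had both anchors there, and 2.92% of all resting-only loops did, so the count rests on offsets of 1 to 3 pixels. The nearest activated loop of the region was 450 to 1480 kb away from the pixel of each long resting loop, by the larger of the 2 anchor distances. Loops per anchor are bound to the number of loops. The 19 resting loops lay on 15 merged anchors, 9 of them with at least 2 loops. The 10 activated loops lay on 17 merged anchors, 3 of them with at least 2 loops. The share over all anchors of either list was not computed, so no difference between the states is read from these counts.

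By the same tolerance 14 of the 19 resting members were not called in activated cells (34.8% over all resting loops), and 5 of the 10 activated members were not called in resting cells (71.7% over all activated loops). The shared share was 26.3% of the resting members (Wilson 95% interval 11.8 to 48.8) and 50.0% of the activated ones (23.7 to 76.3). With anchors not widened 1 loop in each list was shared, the one at 23795001 to 23835000. The 5 shared resting loops had a median length of 85 kb. Since the calls chose the region, nothing is read from these shares.

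Across the genome the activated list held long loops with few contacts. Whether the long resting members could have been called in the activated map was not tested. At 32 paired loops over 500 kb outside chromosome Y the activated map had 1.23 times the expected contacts of the resting map. Multiplied by that ratio, the counts of the 9 long resting members would be 28.2 to 67.5. Of the 284 activated loops over 500 kb outside chromosome Y, the region's 625 kb member included, 83 had no more contacts than the lowest of these scaled counts. A ratio no higher than the lowest of the 9 was found in 67. At the region's own paired loops the expected-count ratio ran from 0.52 (305 kb resting loop) to 2.94 (85 kb). The scaled counts thus depend on the ratio chosen. The 283 activated loops over 500 kb elsewhere outside chromosome Y had a median length of 685 kb, against 1545 kb for the 9 resting members. A loop missing from the activated list is still a loop not called, and the counts of these pixels in activated cells were not analysed here.

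Over the genome, 706 windows of 3000 kb held at least 1 left anchor, and 28 of them (3.97%) had more resting than activated loops. The window that starts where the region does had 19 resting and 9 activated loops, an excess of 10. The second largest excess of any window was 3. Of the 19 windows with at least 10 resting loops, 4 had more resting than activated loops. Loops within a window share anchors and are not independent, and this window was picked with the calls known.

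**Figure D5:**
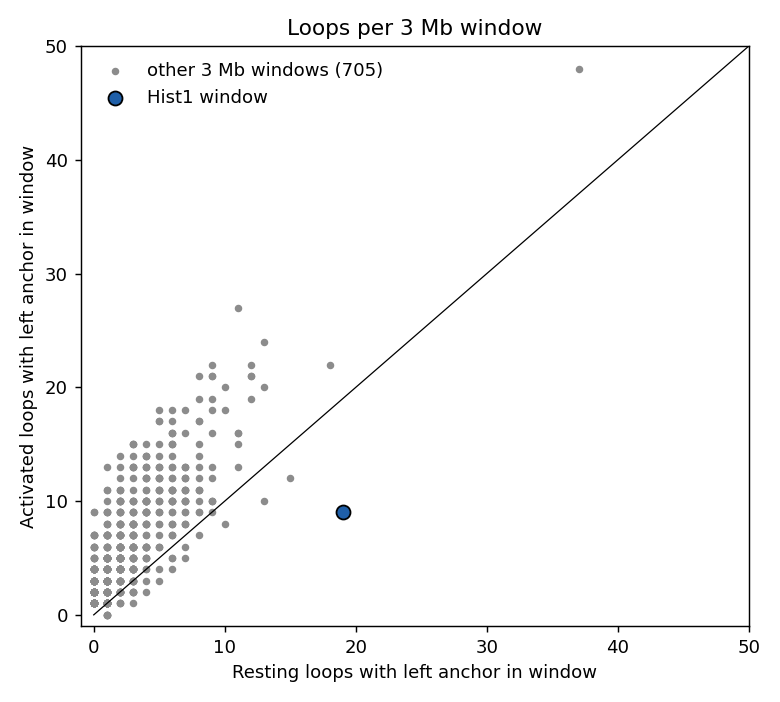
Each point is a 3 Mb window, with the number of resting loops on the x axis and of activated loops on the y axis, counted by left anchor; the line marks equal numbers. The Hist1 window lies below the line at 19 resting and 9 activated loops, and 631 of the 706 windows lie above it.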

How the data were processed

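Hi-C libraries of resting and activated mouse B cells were the source of 2 deposited loop lists, 1 pooled list per state; the activated list carries no time and was taken as the 72 h state, the only wild-type activated map without an added inhibitor in the deposited description of the maps. Per the submitters' processing notes, BWA and Juicer were used with build mm9; neither those notes nor the headers give versions, the loop caller or its settings. Per the file headers, each loop has a deposited observed contact count (not normalized), expected counts from 4 local backgrounds (computed by the authors) and a q-value against each; the highest q-value in the authors' deposited table was 0.0998 (activated, horizontal background). Pixels were 5 kb wide.

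Strength was observed over donut-expected count, length the distance between midpoints. Loops were shared when both anchors, widened by 10 kb, overlapped by at least 1 bp. Depth was compared through expected counts of one-to-one pairs, since library totals were not used here. Intervals (exact Poisson, Wilson) are 95% and cover counting error only. Every member was described. Members, lists and groupings were chosen with earlier results of these data known. Genes and promoters came from RefSeq: 51 of the 56 histone genes had a promoter in the table, and the first listed was used. Matching was run on a copy of part of the resting list with anchors shifted within the tolerance. That checks the code alone, and false matches were not tested. Python 3.11.15, pandas 2.3.3 and scipy 1.17.1 were used.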

Additional observations from a re-analysis of the deposited data

How the results depend on the processing

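Of 60 alternative values, 44 stayed within 1.5 times the reported one and 16 moved further; the cause was not tested unless the setting itself gives it. Anchor reuse of the long loops and the depth ratio of long loops were added after seeing the data. With all q-values at most 0.01 the resting members fell to 12 (activated 9) and the resting group pairs to 3. With both positions inside the region no activated member exceeded 500 kb (0) and 1 activated pair was left. With strength of at least 2.5, 2 resting and 2 activated members were shared and the resting median length was 540 kb. With anchors not widened, 1 resting and 1 activated member were shared, and 0 long resting loops had both anchors in the activated list. Activated members above 300 kb numbered 2 and above 1000 kb 0. Grouping anchors at 50 kb gave 14 resting and 7 activated pairs, and at 200 kb 1 and 1, the resting one across the wide stretch and the activated one from 20.4 to 21.02 Mb. The median strength of resting members was above that of activated ones over the donut, lower left and vertical backgrounds and below it over the horizontal one (2.65 against 2.83) and with strength of at least 2.5 (3.83 against 4.40). Divided by the depth ratio of all pairs, 8 of the 10 activated members reached the lowest resting count, and by that of loops over 500 kb, 10. No paired analysis was possible because each state has 1 pooled list, so no library could be left out either.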
